A study of Mus musculus with 125 samples.

Results

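Open chromatin of the vascular nuclei of the mouse liver was compared with that of all liver nuclei at a young and an adult age. The material was the liver share of an assay for transposase-accessible chromatin (ATAC-seq), in which a transposase cuts and tags DNA that is free of nucleosomes, and each library was represented by a list of peaks, the places where cuts pile up. All lists titled for liver endothelium and for liver input were taken, which gave 8 of the 66 ATAC libraries of the series: 2 endothelial and 2 input libraries of adult liver, and 2 endothelial and 2 input libraries of liver labelled P6, for postnatal day 6. From each list the 25880 best peaks by the deposited -log10 of the q-value were kept, the length of the shortest of the 8 lists, so that a long list could not hold a region by its length alone. Peaks of the 4 libraries of an age that shared at least 1 base were joined into a region. A region was called endothelial-only when both endothelial libraries and no input library had such a peak in it, and input-only in the reverse case. This gave 10347 endothelial-only and 9286 input-only regions among 47714 adult regions, and 9663 and 9250 among 45807 P6 regions.

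Per the labels, all animals received tamoxifen at 0.015 mg/kg. Adult animals, aged 2 months, were injected 7 days before the tissue was taken, and pups were injected on postnatal days 1 and 3. The extraction protocol gives postnatal day 7 as the day of collection for postnatal tissue, while the titles say P6. Only tissue with a visible green fluorescent vascular reporter was used, so the input libraries carry the reporter and the tamoxifen as well. The Cre driver, the reporter allele, the strain, the sex and the number of animals behind a library are not given in the sources used here, nor is the step that separated endothelial nuclei. Nothing in the labels says that replicates came from separate animals, so their spread may be technical.

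Liver capillaries, the sinusoids, are lined by a fenestrated endothelium that lacks a continuous basement membrane, takes up waste macromolecules through scavenger receptors and sends signals such as Wnt ligands and bone morphogenetic proteins to the hepatocytes beside it. All endothelia share a set of transcription factors of the ETS, SOX and GATA families and a set of receptors and junction proteins. Hepatocytes make up most of the liver's mass, secrete plasma proteins and run its metabolism under nuclear receptors and the HNF, FOXA and C/EBP factors. In the young liver hepatocytes still use part of a fetal programme, and blood formation is leaving the organ.

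The promoters of 6 listed genes that overlapped a side-only region at both ages are shown first, because they are the sequences behind several of the comparisons that follow. They are the 250 bases before a RefSeq start on assembly GRCm38.p6, 5′ to 3′ on the gene's strand, with a letter match on either strand in capitals. The first 3 were endothelial-only. Erg, an ETS factor of endothelium, was read at chr16:95459349-95459598 on the minus strand, with the SOX letters ACAATG in capitals and likewise those of the GATA family, spelled AGATAA, both on the reverse strand. Plxnc1, a semaphorin receptor, was read at chr10:94944846-94945095 on the minus strand, with ACAATG in capitals. Cd36, a fatty acid and scavenger receptor, was read at chr5:17835897-17836146 on the minus strand, with ACAATG in capitals. The other 3 were input-only. Fgb, the fibrinogen beta chain, was read at chr3:83049864-83050113 on the minus strand, with TGANTCA (AP-1) and TTNNGCAA (C/EBP) in capitals. Ahsg, the plasma protein fetuin-A, was read at chr16:22891765-22892014 on the plus strand, with TTNNGCAA in capitals. F2, prothrombin, was read at chr2:91636458-91636707 on the minus strand, with TGANTCA and TGCTGAC (MAF) in capitals. A match is a description of letters and not a bound site. The 6 do not stand for their class. Other listed promoters in endothelial-only regions at both ages, such as those of Cd34, Kdr and Stab1, held none of the letters searched.
Erg: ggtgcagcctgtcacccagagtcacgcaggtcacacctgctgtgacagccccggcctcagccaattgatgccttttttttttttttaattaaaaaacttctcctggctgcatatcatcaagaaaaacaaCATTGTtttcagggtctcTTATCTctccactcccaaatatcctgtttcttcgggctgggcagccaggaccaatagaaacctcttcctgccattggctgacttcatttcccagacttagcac
Plxnc1: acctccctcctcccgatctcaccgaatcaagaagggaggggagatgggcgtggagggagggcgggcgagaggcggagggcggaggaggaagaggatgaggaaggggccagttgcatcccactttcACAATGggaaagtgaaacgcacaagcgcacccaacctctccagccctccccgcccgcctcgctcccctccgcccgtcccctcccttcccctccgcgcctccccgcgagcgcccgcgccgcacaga
Cd36: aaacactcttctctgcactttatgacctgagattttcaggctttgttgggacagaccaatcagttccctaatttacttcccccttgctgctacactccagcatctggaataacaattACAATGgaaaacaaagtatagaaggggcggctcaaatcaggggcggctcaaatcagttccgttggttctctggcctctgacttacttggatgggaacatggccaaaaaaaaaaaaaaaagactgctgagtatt
Fgb: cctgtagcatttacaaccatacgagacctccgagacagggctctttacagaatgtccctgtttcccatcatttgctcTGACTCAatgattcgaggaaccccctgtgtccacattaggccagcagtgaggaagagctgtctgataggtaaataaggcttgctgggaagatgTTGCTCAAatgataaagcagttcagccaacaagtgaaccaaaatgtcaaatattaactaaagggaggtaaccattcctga
Ahsg: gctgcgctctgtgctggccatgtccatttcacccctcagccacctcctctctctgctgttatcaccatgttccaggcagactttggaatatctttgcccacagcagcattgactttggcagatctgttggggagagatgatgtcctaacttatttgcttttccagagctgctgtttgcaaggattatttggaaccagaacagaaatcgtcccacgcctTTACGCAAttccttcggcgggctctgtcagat
F2: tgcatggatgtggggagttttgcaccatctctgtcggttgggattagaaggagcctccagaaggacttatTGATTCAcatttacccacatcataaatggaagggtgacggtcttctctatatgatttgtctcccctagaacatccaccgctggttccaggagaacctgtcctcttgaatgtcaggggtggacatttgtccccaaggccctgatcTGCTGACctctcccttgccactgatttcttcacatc

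The libraries differed in depth and in list length. Tags left after the removal of duplicates ranged from 17.4 M to 45.0 M per library, and deposited peaks ranged from 25880 to 77560. P6 input 3 had the fewest tags and the longest list, and adult input 1, whose whole list was used, had the shortest. At the cut the -log10 q ran from 1.02 in adult input 1 to 10.4 in P6 endothelial 1. The headers of both adult input lists name aligned files with a longer suffix than the other 6, so in the adult this naming and the side cannot be told apart, while all 4 P6 lists share a pattern. In bulk nuclei, fewer nuclei of a type and weaker accessibility in each nucleus cannot be told apart.

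Libraries of a side resembled each other more than libraries of different sides at both ages. The share of bases in common among the bases in either list (Jaccard index) was 0.675 for the adult endothelial pair and 0.532 for the adult input pair, against 0.244 to 0.294 for the 4 pairs of different sides. At P6 it was 0.675 and 0.618, against 0.308 to 0.347. The mean for the same side exceeded that for different sides by 0.332 in adult and 0.314 at P6, where the SD over the 4 pairs of different sides was 0.0235 and 0.0169. Each library enters 2 of these 4 pairs, so this SD is not a spread over independent replicates. The true grouping ranked first of the 3 possible splits at each age (one-sided exact permutation p = 0.333 per age and 0.111 for both ages, the smallest this design allows). Within an age, a two-sided exact test of 2 libraries against 2 cannot go below 0.3333, so no test is given for the counts that follow.

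The labels were met by the markers. Of 30 genes expressed by endothelia in general, 29 to 30 had a top peak within 5 kb of the gene body in each endothelial library and 15 to 18 in each input library. Of 20 hepatocyte plasma protein genes, all 20 had one in each input library, and 5 to 8 in each endothelial library. All 12 housekeeping genes had a peak in all 8 libraries. Of all protein-coding genes, 57.25% to 61.67% had such a peak in a library, so the general endothelial genes were near that share in the inputs and above it in the endothelial libraries.

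Endothelial-only regions were 21.7% of all adult regions and 21.1% of all P6 regions, and input-only regions were 19.5% and 20.2%. Regions held by all 4 libraries were 20.0% in adult and 23.2% at P6. The side-only regions lay away from gene starts. Of the endothelial-only regions, 7.29% in adult and 4.98% at P6 lay within 1 kb of a known start of a protein-coding gene, and of the input-only regions 6.96% and 7.62%, against 19.7% and 20.4% of all regions and 63.4% and 62.1% of the regions held by all 4 libraries. The median distance to a known start was 42.1 kb for endothelial-only regions at either age, 35.6 and 39.5 kb for input-only regions and 0.209 and 0.231 kb for those in all 4. Most regions held by all 4 libraries were at gene starts, and most side-only regions were not. The median width was 519 and 556 bp for endothelial-only and 443.5 and 458 bp for input-only regions, against 477 and 515 bp for all regions. Regions of all 4 libraries join more peaks and are wider by construction.

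**Figure D1:**
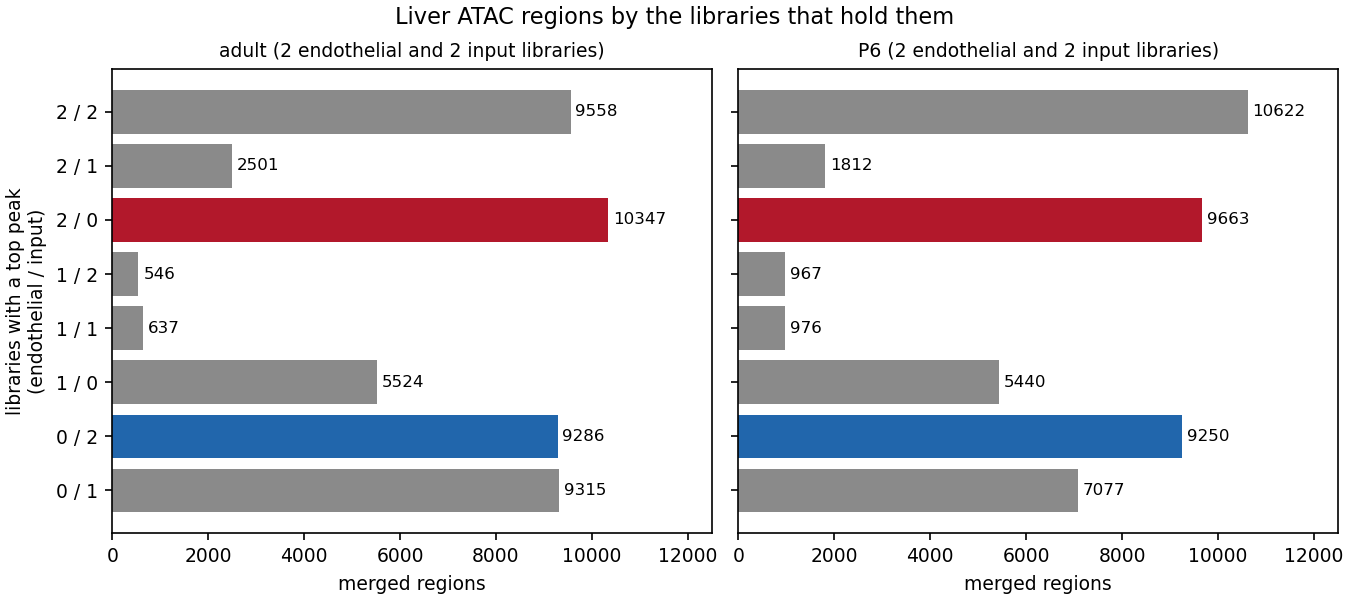
Merged regions (x axis, count) by how many endothelial and input libraries hold a top peak in them (y axis), for adult and P6 liver, with endothelial-only regions in red and input-only in blue. Regions in all libraries of 1 side and none of the other, such as 10347 endothelial-only regions in adult, are about as many as those in all 4 libraries, such as 9558 in adult, while patterns that mix the sides are fewer, such as 637 with 1 library of each side and 2501 with both endothelial and 1 input library.

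Genes were read by the regions within 5 kb of the gene body. Of all 21883 protein-coding genes, 18.4% had an endothelial-only region in adult and 17.6% at P6, and 18.2% and 19% had an input-only region, and these are the shares against which each list is read. Long genes collect more regions. The median gene body was 17.2 kb over all genes, 25.6 kb in the general endothelial list, 36.3 kb in the sinusoidal list, 43.5 kb in the list of endothelial signals, and 10.2, 16.4 and 24.9 kb in the 3 hepatocyte lists of plasma proteins, metabolism and transcription factors.

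Of the 30 general endothelial genes, 26 had an endothelial-only region in adult and 25 at P6 (77 and 85 regions), and 4 and 5 had an input-only region. Every adult gene with an input-only region (Ets1, Heg1, Mmrn2 and Nos3) also had an endothelial-only region, as did 4 of the 5 at P6, where Mmrn2 had an input-only region alone. The transcription factors are given first. Erg, the ETS factor that maintains endothelial identity, had 10 and 9 peaks in the adult endothelial libraries and 0 in both inputs, and 8 and 8 against 2 and 1 at P6. In adult 9 of its regions were endothelial-only, all overlapping the gene, and at P6 there were 8, beside 1 input-only region in Erg at chr16:95364029-95364584. Fli1, a related ETS factor, had 6 and 6 peaks against 0 and 0 in adult, and 5 and 7 against 1 and 0 at P6. Tal1, a blood and vessel factor, had 4 in each endothelial library and 0 or 1 in each input at both ages. Sox17 and Sox18, endothelial SOX factors, had 3 and 2 endothelial-only regions in adult and 2 each at P6, with no top peak in any input. For these 5 factors the endothelial libraries held more peaks than the inputs at both ages. They were named for their number of endothelial-only regions or as examples. The same top peaks define those regions, so the separation follows in part from the choice and is a description only. Ets1, a broadly used ETS factor, had 10 and 9 peaks against 5 and 7 in adult and 10 and 9 against 4 and 5 at P6, with 2 input-only regions at each age. Sox7, a further SOX factor, had 1 peak in each of the 8 libraries.

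The receptors followed. Ptprb, the vascular tyrosine phosphatase, had 7 and 9 peaks in the adult endothelial libraries, 7 and 8 at P6, and at most 1 in any input. Kdr, the main receptor for vascular endothelial growth factor, had 6 and 6 against 2 and 2 in adult and 6 and 7 against 1 and 0 at P6. Flt1, the decoy receptor of that family, had 4 endothelial-only regions in adult and 7 at P6. Tek, the angiopoietin receptor, had 4 at each age, with 9 and 6 peaks against 2 and 1 in adult and 5 and 4 against 0 and 0 at P6. Cdh5, the cadherin of endothelial junctions, had 6 and 5 peaks against 1 and 1 in adult and 7 and 7 against 1 and 0 at P6. Cldn5, a tight junction protein, had 2 endothelial-only regions at each age and no input peak. Genes of this list without a side-only region within 5 kb at either age were Sox7, Tie1 and Emcn. Farther off, Emcn was the nearest gene of 7 endothelial-only regions in adult and 2 at P6. Sox7 was nearest to 1 at each age and Tie1 to 1 at P6, and none of the 3 was nearest to an input-only region.

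These counts move with the way regions are tied to genes and with the input lists. When a region counted only for the gene with the nearest known start, the general endothelial genes with an endothelial-only region numbered 15 in adult and 16 at P6. When absence was required from the full input lists, the P6 count was 14. The input-only count ran from 0 to 8 over the alternatives in adult, with 8 when adult input 2 was left out, and from 3 to 9 at P6. The list had more genes with endothelial-only than with input-only regions under all 13 alternatives at both ages. In adult, the alternative that set the number of peaks within each age was the main setting itself and could not differ.

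**Figure D2:**
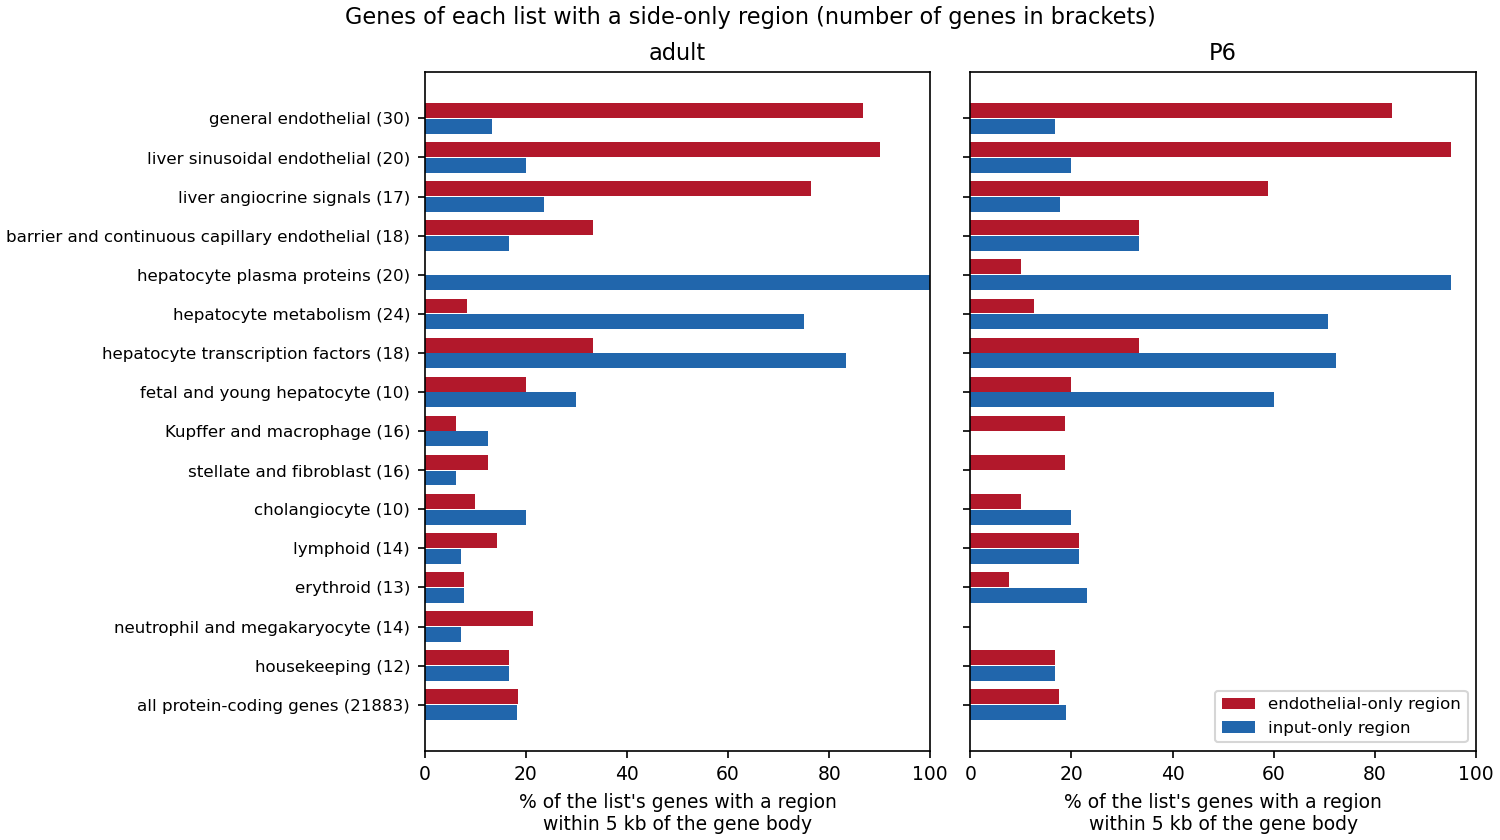
Share of each list's genes (x axis, percent) with an endothelial-only (red) or input-only (blue) region within 5 kb of the gene body, in adult and P6 liver, with the number of genes in brackets. In adult, 26 of 30 general endothelial and 18 of 20 sinusoidal genes carry an endothelial-only region, and all 20 plasma protein genes an input-only region, against 18.4% and 18.2% of all protein-coding genes in the lowest row.

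Of 20 genes known for the liver sinusoid, 18 had an endothelial-only region in adult and 19 at P6 (60 and 55 regions), and 4 at each age had an input-only region, all 4 of them beside an endothelial-only region. The scavenger receptors differed among themselves. Stab1, stabilin-1, had 3 and 4 peaks in the adult endothelial libraries, 2 and 3 at P6 and none in any input. Stab2, stabilin-2, which clears hyaluronan, had 6 and 5 peaks against 4 and 4 in adult and 5 and 6 against 4 and 2 at P6, with 4 endothelial-only and 3 input-only regions in adult and 3 and 2 at P6. Its 3 adult input-only regions overlapped the gene, the nearest to a known start at chr10:86947532-86947936, and the Stab2 start itself lay in an endothelial-only region, chr10:87007909-87008426. Mrc1, the mannose receptor, had 4 peaks in each endothelial library and 0 or 1 in each input. Clec4g, a lectin of the sinusoid, had 5 and 5 against 0 and 0 in adult and 3 and 5 against 1 and 1 at P6, and the region over its start was endothelial-only in adult, where both libraries held it. At P6 only endothelial 2 had a top peak there. Lyve1, the hyaluronan receptor, had 1 endothelial-only and 1 input-only region at each age, and so had Cd36. The Cd36 promoter overlapped the endothelial-only one, but the gene's peaks numbered 2 and 2 against 2 and 4 in adult and 2 and 2 against 3 and 3 at P6, so the inputs held as many or more.

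Plxnc1 had the most endothelial-only regions of the list, with 9 in adult and 8 at P6 (11 and 12 peaks against 2 and 2 in adult, 10 and 11 against 2 and 4 at P6). Fcgr2b, the inhibitory Fc receptor that sinusoids use to remove immune complexes, had 6 and 6 peaks against 1 and 1 in adult, and 4 and 5 against 0 and 0 at P6. Among the factors, Meis1, a homeobox factor, had 7 endothelial-only regions in adult and 5 at P6. Gata4, the GATA factor that sinusoidal identity depends on, had 2 at each age, both overlapping the gene. In adult its peaks numbered 4 and 3 against 3 and 1, which overlap, and at P6 5 and 4 against 1 and 0. Tfec had 4 and 2, with no input peak. Maf, a factor used by sinusoidal cells, had 1 peak in each of the 8 libraries and no side-only region. The P6 count of genes with an endothelial-only region was 12 when peaks were ranked by fold enrichment and also 12 when absence was required from the full input lists.

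**Figure D3:**
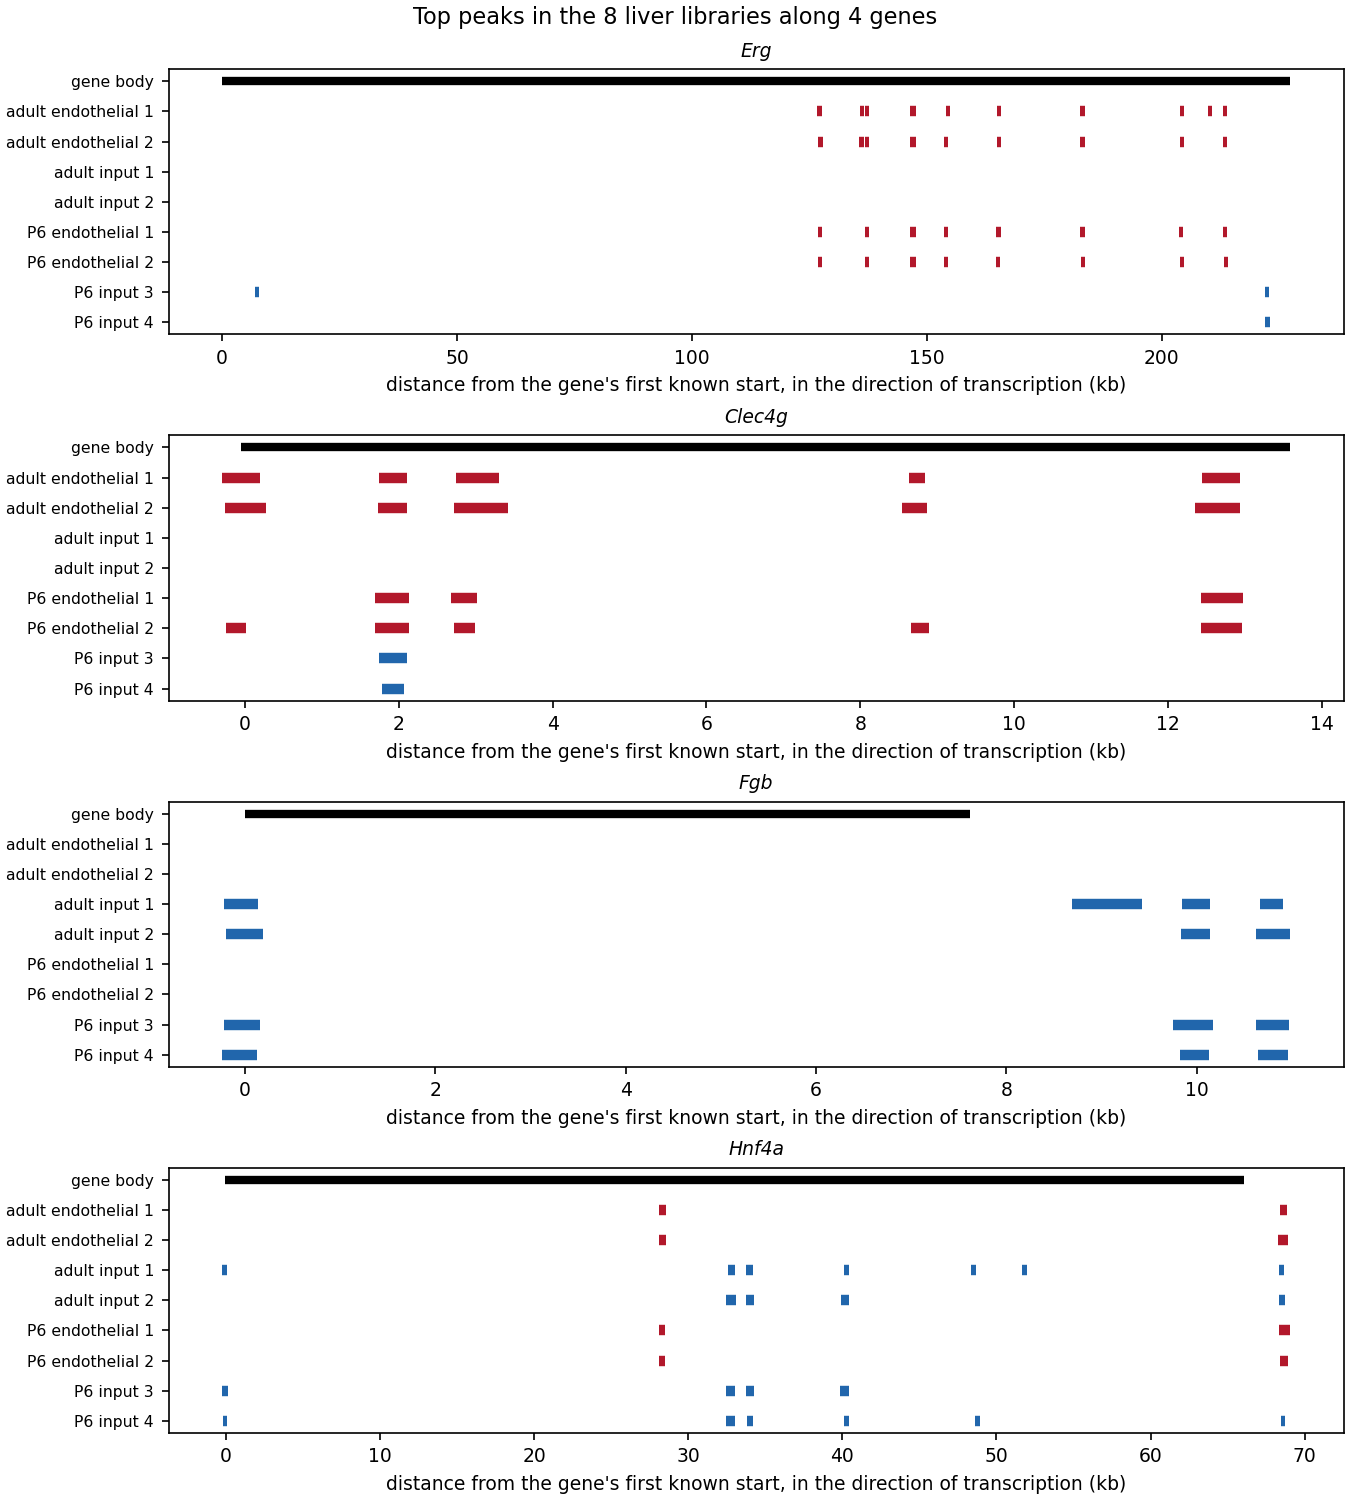
Top peaks of the 8 liver libraries (rows, endothelial in red and input in blue) along Erg, Clec4g, Fgb and Hnf4a (black bar, gene body), by distance from the first known start in the direction of transcription (x axis, kb). Narrow peaks are drawn at a minimum width. Adult inputs have no peak at Erg or Clec4g, endothelial libraries have none at Fgb, and at Hnf4a each side has places of its own.

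Of 17 genes listed for endothelial signals in the liver, 13 had an endothelial-only region in adult and 10 at P6, and 4 and 3 had an input-only region. The list also holds the receptors Kit and Thbd, and Kit was among the genes with an endothelial-only region at both ages. The ages are given side by side and their difference was not tested. Wnt2, a Wnt ligand of the central vein side, had 5 and 4 peaks against 1 and 2 in adult with 2 endothelial-only regions, with the start in chr6:18030186-18030704, and 2 and 3 against 1 and 1 at P6 with none. Rspo3, which strengthens Wnt signalling, had 2 and 2 against 0 and 0 in adult with 2 endothelial-only regions, and 1 and 1 against 0 and 0 at P6 with none. Bmp6, the signal that sets hepcidin in hepatocytes, had 6 and 7 against 1 and 3 in adult with 4 endothelial-only regions, and 3 and 2 against 2 and 2 at P6 with 1. Bmp2 had 2 in adult and 1 at P6. Hgf, hepatocyte growth factor, had 1 in adult and 2 at P6, and Dll4, a Notch ligand, 2 and 3. Cxcl12, a chemokine, went the other way, with no peak in any endothelial library and 3 in each input, of which 3 regions in adult and 2 at P6 were input-only, including the region over its start. In adult that start region, chr6:117168344-117168857, held a top peak in the endothelium of 4 of the 5 other organs described further on. Angpt2 had 1 endothelial-only and 2 input-only regions in adult. Leaving out P6 endothelial 1 raised the P6 count of genes with an endothelial-only region from 10 to 16, requiring absence from the full input lists lowered it to 4, and the nearest known start gave 8 in adult. Leaving out adult input 1 gave 7 genes with an input-only region in adult in place of 4.

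A list of 18 genes known from capillary beds of other organs, most of them barrier or continuous ones, had endothelial-only regions at 6 members at each age. Plvap, an endothelial diaphragm protein that is not a marker of barrier capillaries, had 2 in adult and 3 at P6. Ednrb, the endothelin B receptor, had 2 and 3, and Cd300lg 2 and 2. Input-only regions were found at 3 genes in adult and 6 at P6. Mfsd2a, the lipid carrier of the blood-brain barrier, had no peak in the 4 endothelial libraries, 2 and 2 in the adult inputs and 1 and 1 in the P6 inputs. Foxq1 and Slco1c1 had 1 peak in each input library and none in endothelium.

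All 20 hepatocyte plasma protein genes had an input-only region in adult and 19 at P6, and 0 and 2 had an endothelial-only region. Alb, albumin, had 4 and 1 peaks in the adult inputs, 1 and 2 in the P6 inputs and 0 in the 4 endothelial libraries. Its start lay in an input-only region at P6, chr5:90460614-90461005, and its adult input-only region, chr5:90476559-90477651, lay 16.2 kb from a known start. Fgb had 4 and 3 peaks in the adult inputs, 3 and 3 at P6 and 0 in endothelium, with 3 input-only regions at each age with the start among them at both ages. Cp, ceruloplasmin, had 3 at each age, with 4 and 6 peaks in the adult inputs and 4 and 4 at P6 against 1 in each endothelial library. Ahsg had 4 and 2 peaks in the adult inputs, 1 and 2 at P6 and 0 in endothelium. Apoa1 and Apoc3, neighbouring apolipoprotein genes, shared the sole endothelial-only region of the list at P6, and Apoa2 was the member without an input-only region at P6. Ranked by fold enrichment, 8 of the 20 had an input-only region at P6. Without adult endothelial 1, 2 genes had an endothelial-only region in adult in place of 0.

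Of 24 metabolic genes of hepatocytes, 18 had an input-only region in adult and 17 at P6, and 2 and 3 an endothelial-only region, the latter 5 without P6 endothelial 1. Over the alternatives the endothelial-only count ran from 2 to 8 in adult, with 8 for a window of 20 kb, and from 2 to 5 at P6. Cyp7a1, the rate-limiting enzyme of bile acid synthesis, had 2 and 3 peaks in the adult inputs, 3 and 3 at P6 and 0 in endothelium. Pck1, of gluconeogenesis, had 2 in each input and 0 in endothelium. Cyp1a2, a xenobiotic enzyme of the mature liver, had 1 in each adult input and 0 in the other 6 libraries. Slc10a1, the bile acid carrier, had no top peak in any of the 8. Glul, glutamine synthetase, had 1 peak in each adult library and no side-only region there, and 1 input-only region at P6.

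Of 18 hepatocyte transcription factors, 15 had an input-only region in adult and 13 at P6, with 35 regions at each age. Nr5a2, a nuclear receptor of bile acid metabolism, had 9 and 9 peaks in the adult inputs and 8 and 9 at P6, against 5 and 5 and 2 and 3 in endothelium, with 6 input-only regions at each age. Nr1h4, the bile acid receptor, had 5 and 6 input-only regions, and Nr1i2, the xenobiotic receptor, 3 and 5. Hnf4a had 7 and 4 peaks in the adult inputs and 4 and 6 at P6, and 2 in each endothelial library. At P6 input-only regions overlapped promoters of Hnf4a at chr2:163506614-163506993 and chr2:163546715-163547314, and in adult at chr2:163546756-163547299. An endothelial-only region also overlapped Hnf4a at both ages, chr2:163534948-163535437 in adult. In all, 6 of the 18 had an endothelial-only region at each age. Rxra, the partner of many nuclear receptors, had 4 in adult and 3 at P6 and no input-only region, with 7 and 6 peaks against 4 and 4 in adult. Prox1, which also marks lymphatic endothelium, had 1 at each age and no input-only region. The adult count of 15 was 8 with all peaks of -log10 q at least 5, and the P6 count of 13 was 8 by fold enrichment.

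**Figure D4:**
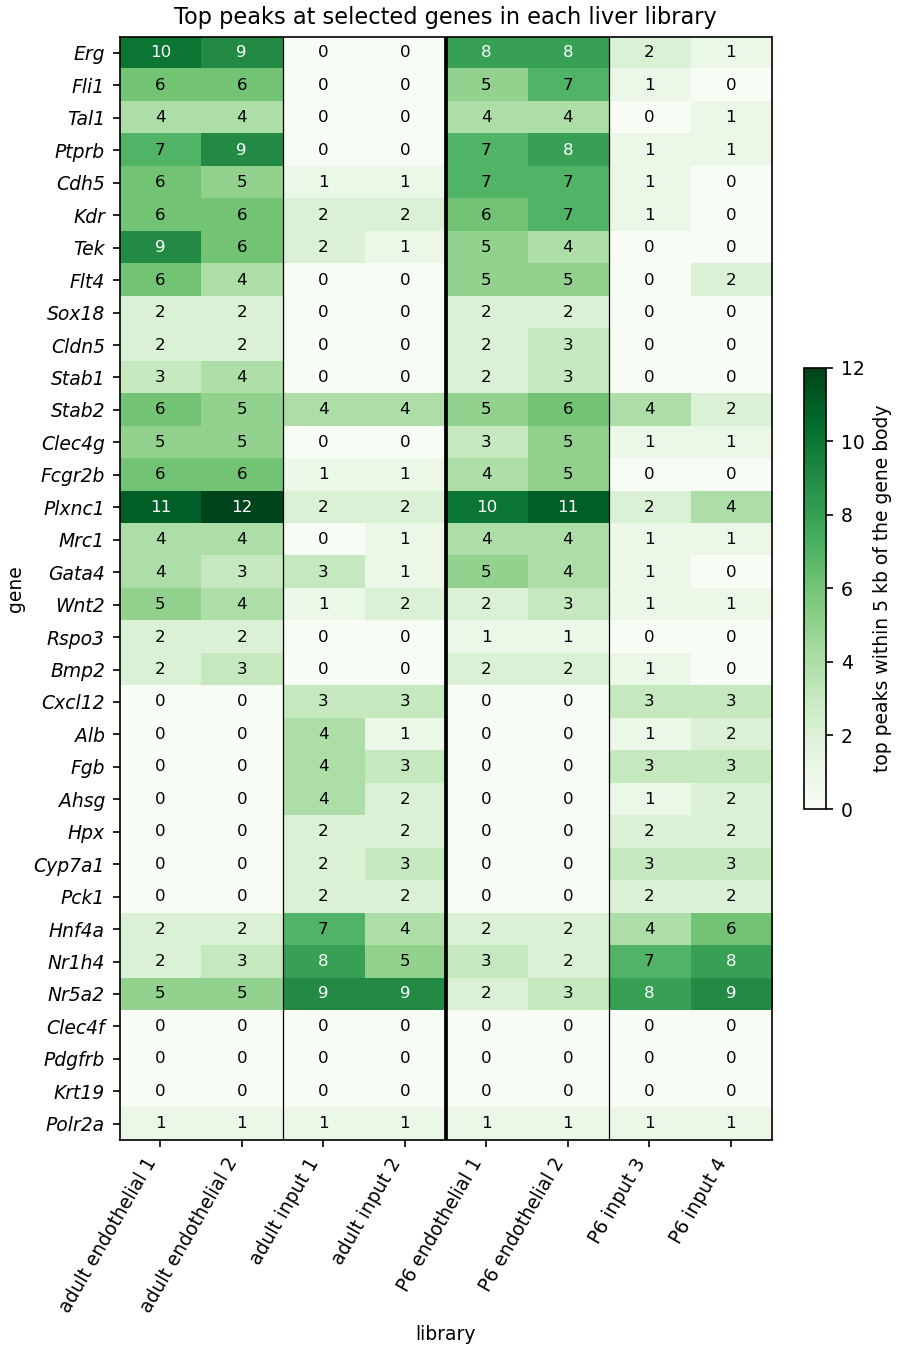
Number of top peaks within 5 kb of the gene body (colour and digits) at 34 listed genes (rows) in each of the 8 liver libraries (columns), with genes chosen for display once their values were known. Endothelial genes such as Erg (10, 9, 0 and 0 in the adult libraries) fill the endothelial columns, hepatocyte genes such as Fgb (0, 0, 4 and 3) the input columns, and Polr2a has 1 peak throughout.

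Of 10 genes of the fetal and young hepatocyte, 3 had an input-only region in adult and 6 at P6, and 2 at each age an endothelial-only region. Afp, alpha-fetoprotein, had no input-only region in adult, where the inputs had 2 and 0 peaks, and 2 at P6, where both had 2. Cyp3a16, a cytochrome of the young liver, had 1 in adult and 3 at P6. Hmga2, a chromatin protein of growing tissue, had 5 endothelial-only regions in adult and 4 at P6. Igf2, a fetal growth factor, had 1 endothelial-only region at P6, over a RefSeq promoter, with 1 peak in each P6 endothelial library and 0 in the other 6. By fold enrichment, 3 genes had an input-only region at P6.

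Other cell types of the liver were read through their own markers, beside the 57.25% to 61.67% of all protein-coding genes that had a top peak in a library and, in the full lists, 57.6% in adult input 1 to 77.4% in P6 input 3. Of 16 Kupffer cell and macrophage genes, 4 to 9 had a top peak in a library, and 1 and 3 had an endothelial-only region in adult and at P6 against 2 and 0 with an input-only region. The endothelial-only regions were at Fcgr1 in adult and at C1qa, C1qc and Spic at P6, and the adult input-only ones at C1qb and C1qc. Among the top peaks Clec4f, Vsig4, Marco, Timd4, Cd5l, Adgre1 and Lyz2 were at 0 in all 8. Of 16 stellate cell and fibroblast genes, 1 to 6 had a top peak, with Pdgfrb, Lrat, Dcn, Lum, Ngfr, Rgs5 and Tcf21 at 0 in all 8. The endothelial libraries had 3 to 6 and the inputs 1 to 3. In the full lists the order at P6 was not the same, with 15 stellate genes in P6 input 3, 8 in P6 input 4 and 10 and 7 in the P6 endothelial libraries, and Pdgfrb had 3 and 2 peaks in P6 endothelium and 6 and 2 in the P6 inputs. Of the Kupffer cell genes the full lists held 15 in P6 input 3, 9 in P6 input 4 and 10 in each P6 endothelial library. Col1a1 and Ecm1 had endothelial-only regions at both ages. Of 10 cholangiocyte genes, 1 to 3 had a top peak, with Krt19, Krt7, Sox9 and Spp1 at 0. Of 14 lymphoid genes, 3 to 5 had one, with Cd3e, Cd8a, Ms4a1, Gzma, Il7r and Ncr1 at 0. An endothelial-only region was found at 2 lymphoid genes in adult and 3 at P6, and an input-only one at 1 and 3. The endothelial-only ones were at Lck and Cd79a at both ages and at Cd79b at P6. The input-only ones were at Cd3g at both ages and at Pax5 and Ptprc at P6. Of 14 neutrophil and megakaryocyte genes, 3 to 6 had one, and 3 had an endothelial-only region in adult and none at P6. Among 13 erythroid genes, 10 had a top peak in P6 input 4, 5 in P6 input 3 and 2 to 4 in the other 6 libraries. Slc4a1, the anion exchanger of the red cell membrane, had 2 peaks and Hba-a1 and Hbb-bs, of haemoglobin, 1 each in P6 input 4, and 0 in the other 7. In the full lists the erythroid genes with a peak numbered 13 and 12 in P6 inputs 3 and 4 and 3 to 7 in the other libraries. Without P6 input 3 the erythroid genes with an input-only region numbered 8 in place of 3. The markers at 0 and the erythroid genes were named after their values were seen. The part of these cells in the regions was not tested.

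The genes whose body was nearest to most side-only regions, at any distance, included few listed ones. In adult endothelium they were Diaph3, a formin, with 23 regions, Adgrl2, an adhesion receptor, with 22, Marcks, a substrate of protein kinase C, with 21, and Rgs3 and Nfia with 18 each. For Diaph3, 6 of the 23 lay within 5 kb of the gene and the rest farther off. At P6 they were Frmd4a with 18, of which all 18 lay within 5 kb, Cemip2, a hyaluronidase, and Rad51b with 15, and Ets1 with 13. Input-only regions were also nearest to these genes, such as 6 to Diaph3 and 3 to Marcks in adult and 5 to Rad51b at P6. On the input side Irs2, the insulin receptor substrate of liver, led at both ages, with 18 regions in adult and 17 at P6, against 1 and 1 on the endothelial side. Pik3r1, a subunit of phosphoinositide 3-kinase, followed in adult with 14 against 0, then Myc with 13, which also had 12 endothelial-only regions. At P6 Tenm3 had 15 against 0, and Foxa2, a pioneer factor of liver, 11 against 5. Tenm3 had no top peak in any endothelial library, and 10 and 16 in the adult and 19 and 16 in the P6 inputs. Adgrl2 was among the leaders on both sides, with 12 input-only regions at each age.

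Of the 10 best-ranked regions of an age and side, 7 lay between genes on either side in adult, and 6 endothelial-only and 7 input-only ones at P6. Of all endothelial-only regions, 40.5% in adult and 41.1% at P6 lay between genes and more than 1 kb from a known start. For input-only regions the shares were 41.8% and 43.0%. With 10 regions each, no difference was tested. In adult endothelium the leading region was chr16:87284879-87285484, 68.7 kb from N6amt1, which ranked 203 and 189 in the endothelial libraries with a deposited fold enrichment of 7.83 and 7.64. The next was chr16:86252571-86253058, 351 kb from Adamts5, a matrix protease, ranking 139 and 309. Both were present in both P6 endothelial libraries and in no P6 input. At P6 it was chr14:40817885-40818529 in Sh2d4b, with ranks 111 and 309, followed by chr11:4232492-4233083, 3.70 kb from the cytokine gene Osm. Both held a top peak in both adult endothelial libraries. The Sh2d4b region also held one in adult input 2, and the Osm region in no adult input. On the input side Xkr4 led in adult at chr1:3514619-3515299 (ranks 103 and 138) and was among the leading ones at P6. The P6 leader was chr13:62907924-62908632, 19.6 kb from Fbp1, an enzyme of gluconeogenesis (ranks 172 and 177), followed by a region 9.36 kb from Sult1e1, a sulfotransferase.

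Side-only regions recurred at the other age. Of adult endothelial-only regions, 5508 (53.2%) overlapped a P6 endothelial-only region, and of P6 ones 5509 (57.0%) an adult one, against 16.1% of all adult and 18.4% of all P6 regions. Of adult input-only regions, 5107 (55.0%) were input-only at P6, and of P6 ones 5096 (55.1%) in adult, against 15.2% and 14.6%. By list, 55 of 77 adult regions near general endothelial genes and 39 of 60 near sinusoidal genes were endothelial-only at P6, 10 of 22 near genes of endothelial signals, and 23 of 34 input-only regions near plasma protein genes were input-only at P6. The ages share no library.

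The peak lists of 5 other organs were read at the liver regions, with the best 19464 peaks per library, the shortest list among all ATAC libraries. At this shorter cut the liver endothelial libraries themselves held 73.1% and 73.3% of the adult endothelial-only regions, and 77.9% and 71.9% at P6. The liver inputs held 83.1% and 79.4% of the adult input-only regions, and 77.1% and 77.9% at P6. A region without a peak in another organ may therefore lie below the cut. Adult liver endothelial-only regions overlapped a peak of kidney endothelium in 34.3% of cases on average over its 2 libraries, of heart in 32.2%, of lung in 29.3%, of brain in 18.0% and of retina in 10.4%. Of all adult liver regions the same endothelia held 33.7%, 32.1%, 32.4%, 30.0% and 25.8%, so the endothelial-only shares were near that background in kidney and heart and below it in lung, brain and retina. The inputs of these organs gave 4.89% in kidney to 14.1% in lung, against 24.1% in retina to 29.2% in lung for all adult regions. At P6 the shares were 41.2% in heart, 41.1% in kidney, 38.8% in lung, 19.4% in brain and 13.0% in retina, against 33.4%, 36.0%, 32.4%, 31.4% and 29.6% of all P6 regions. In each organ and at each age every endothelial library lay above every input, and adult retina was the closest, with endothelial libraries at 8.51% and 12.3% and inputs at 7.64% and 8.34%. This order is not particular to the endothelial-only regions. Over all liver regions it also held in every organ in adult, and at P6 in brain, heart and retina but not in kidney and lung. Each mean is over 2 or 3 libraries, except the adult inputs of brain and heart with 1 each. The P6 brain endothelial libraries ranged from 12.5% to 24.0%. Adult input-only regions overlapped a kidney input peak in 24.2% and other inputs in 4.19% to 10.3%. All of these were below the shares of all adult regions, 27.8% for kidney inputs and 24.1% to 29.2% for the others. At P6 the kidney inputs ranged from 18.6% to 37.3%, with 1 library apart from the other 2, against 31.1% to 37.1% of all P6 regions. Regions held by all 4 liver libraries, most of them at gene starts, raise the share over all regions, since the other endothelia held 85.2% to 92.7% of them in adult.

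**Figure D5:**
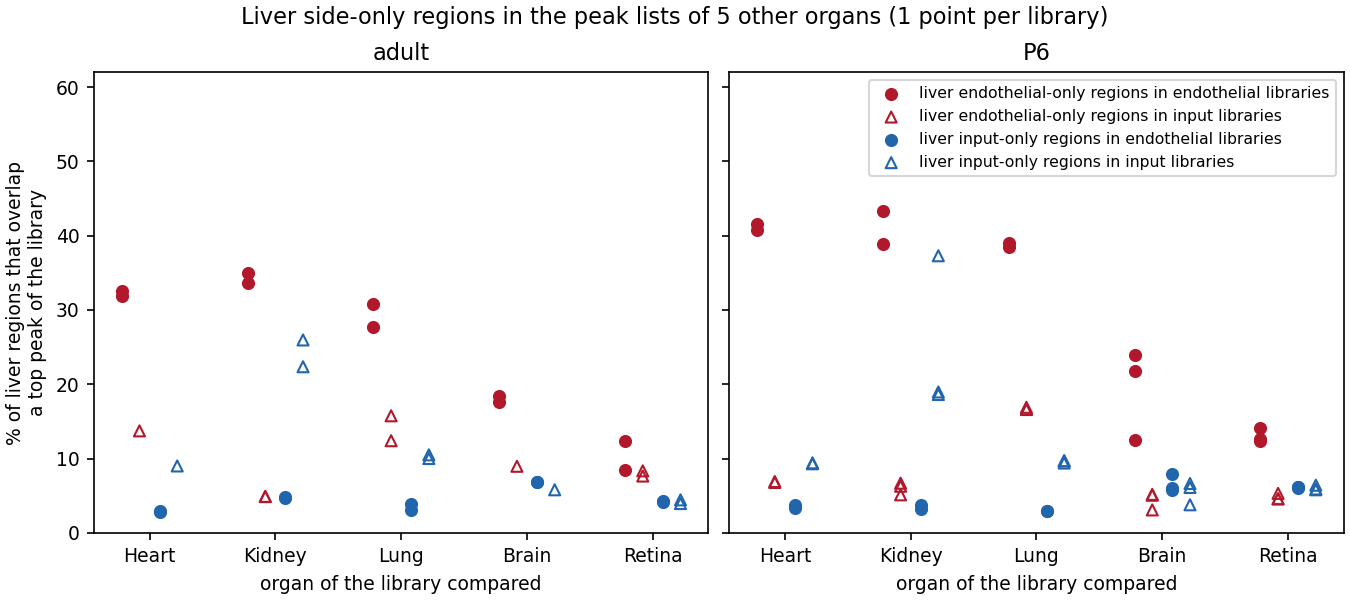
Share of liver endothelial-only (red) and input-only (blue) regions (y axis, percent) that overlap a top peak of each endothelial (filled circles) or input (open triangles) library of 5 other organs (x axis), for adult and P6. Adult kidney endothelium holds 34.3% of the endothelial-only regions and adult kidney inputs 24.2% of the input-only regions, where the shares of all adult liver regions, not drawn, are 33.7% and 27.8%.

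The sinusoidal list had more regions found in no other organ's endothelium. Of all adult endothelial-only regions, 4196 (40.6%) had no peak in the endothelium of any of the 5 organs and 710 (6.86%) had one in all 5. Here too a peak is one of the best 19464 of a library, so weaker peaks count as none. Of all adult liver regions, whatever their class, 49.4% were in none and 21.4% in all 5, so both endothelial-only shares lay below that background. Of the 60 near sinusoidal genes, 42 (70%) were in none and 1 in all 5, while of the 77 near general endothelial genes 20 (26.0%) were in none and 16 (20.8%) in all 5. At P6 the shares in none were 32.5% of all endothelial-only, 65.5% of 55 sinusoidal and 17.6% of 85 general regions, against 45.2% of all P6 regions. All 5 adult regions at Clec4g and both at Gata4, Wnt2 and Rspo3 were in none, while the region over an Erg start, chr16:95458740-95459936, was in all 5. Wnt2 and Rspo3 are of the list of endothelial signals and do not stand for it. Of that list's 22 adult regions, 9 (40.9%) were in none and 3 in all 5, near the 40.6% of all endothelial-only regions in none. At P6 it was 7 of 16 (43.8%) in none. These are counts of regions that share genes, and no test of the lists' difference is given.

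Promoters that overlapped side-only regions differed in their letters. RefSeq promoters here run from 250 bases before to 50 after a start, 21262 in all, of which 680 overlapped adult endothelial-only and 545 adult input-only regions, and 399 and 656 at P6. The C/EBP letters TTNNGCAA were in 87 of the 545 adult and 114 of the 656 P6 input-only promoters (17.4% at P6), in 7.06% and 8.52% of endothelial-only ones and in 10.2% of all promoters. The FOX letters TGTTTAC were in 6.42% of adult input-only and 2.35% of endothelial-only promoters, with 3.01% of all. The HNF4 letters CAAAGTCCA were in 2.02% and 0.441%, with 0.452% of all. The ETS letters CCGGAAGT or ACAGGAAG were in 8.24% of adult endothelial-only and 8.18% of all promoters, in 30 of the 545 input-only ones, and in 13.6% of those in all 4 libraries. The GATA letters AGATAA were in 7.5%, 11.0% and 9.65%. The ETS and GATA letters in endothelial-only promoters were close to or below the share of all promoters. The SOX letters ACAATG, marked in the printed endothelial promoters, were in 7.94% of adult endothelial-only, 9.54% of input-only and 11.0% of all promoters, and in 8.77% and 9.91% at P6, so the endothelial-only class did not hold them more often. The AP-1 letters TGANTCA were in 6.32% of adult endothelial-only, 9.54% of input-only and 6.99% of all promoters, and at P6 in 40 of the 399 and 55 of the 656. The MAF letters TGCTGAC were in 3.82%, 7.16% and 4.30% in adult, and in 4.51% and 6.25% at P6. Base composition differed between the adult classes, with a median GC of 62.3% in endothelial-only, 55.0% in input-only and 56.3% in all promoters. At P6 it was 58.7% in endothelial-only and 56.3% in input-only promoters, the latter the same as in all. The part of base composition in these shares was not tested. All motifs were searched on both strands.

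Most P6 endothelial-only regions had a weaker peak in the full list of an input. Of the 9663, 6434 (66.6%) overlapped a peak among the 77560 of P6 input 3 and 1618 (16.7%) one among the 40943 of P6 input 4, and 3188 were in neither. In adult 2397 (23.2%) of the 10347 overlapped a peak of input 2, while input 1 was used whole. For input-only regions the full endothelial lists held 16.1% in adult and 18.9% at P6. Near general endothelial genes, 65 of 85 P6 regions had such an input peak, and near sinusoidal genes 39 of 55.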

How the data were processed

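Nuclei of liver were profiled by ATAC-seq in 8 libraries, 2 per age and side. Per the submitters' processing notes, Bowtie2, SAMtools 1.13, Picard, MACS2 2.1.2, DiffBind 3.2, R 4.1 and DESeq2 1.32.0 were used by the authors with build mm10; the role and order of each are not given in the sources used here. Per the file headers, MACS2 called broad peaks in each library alone, with no control library and no pooling of replicates. The deposited lists give each peak's mean pileup signal, its fold enrichment over the local background, and the -log10 of its p-value and q-value, all as written by MACS2 for the authors. These are values of a peak within its own list and were used to rank, filter and describe peaks only.

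The best 25880 peaks per library by -log10 q were merged per age with a minimum overlap of 1 base. Genes were the 21883 protein-coding genes of the RefSeq table on GRCm38.p6, the assembly behind mm10. Nearest genes were meant to be read by their start, but the table holds no strand and starts are known for 17491 of these genes (21262 starts), so the nearest gene body was used and the nearest known start became an alternative. The self-test on simulated peak lists recovered 100% of the planted side-only regions. It planted patterns in adult regions spaced so that they could not join, with peak ends only drawn inward. It had no cut on q and no difference in depth. It therefore checks the region code and cannot show how well regions near the cut are called. Within an age, 2 libraries against 2 cannot reach a two-sided exact p-value under 0.3333, so regions are described by counts beside the share of all regions or genes. Jaccard indices were compared by an exact permutation test. Python 3.11.15, numpy 2.4.6, pandas 2.3.3, scipy 1.17.1 and matplotlib 3.10.9 were used.

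The comparison and the gene lists were chosen with earlier results of these data known. Named genes were, per age and side, the 10 with most side-only regions assigned, the nearest genes of the 10 best-ranked regions, up to 4 members per list with most side-only regions within 5 kb, and members of the endothelial and hepatocyte lists as examples; other names were chosen after their values were seen. Promoters were printed for 6 genes of the lists with a side-only region over a start, each of which held a match. Alternatives changed the number of peaks, the ranking, the overlap, the way genes were assigned and the libraries included. RNA libraries and single cells were not analysed here, and peaks of other organs were used only at liver regions. A few members of the lists are counted but not reported here by name.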

Additional observations from a re-analysis of the deposited data

Results flagged for a closer look

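A few regions changed sides between the ages. Of the adult endothelial-only regions, 38 were input-only at P6, and 13 adult input-only regions were endothelial-only at P6. In these regions both libraries of each group moved one way in adult and the other way at P6, and the difference was not tested. The 38 are 0.367% of the adult endothelial-only regions and the 13 are 0.140% of the adult input-only regions. Among the 38 was a region inside Qsox1, a sulfhydryl oxidase, at chr1:155805682-155806101, a gene named here after its values were seen.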

How the results depend on the processing

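No paired analysis was possible because the counts of regions come from no test into which a block could enter. This holds for the adult libraries, numbered 1 and 2 on both sides, and at P6 the inputs are numbered 3 and 4, so that no number is shared. The similarity of the same side stayed above that of different sides under the 6 alternatives it was computed for, none of which left out a library, but which side had more regions did not hold. With the number of peaks set within each age, 15043 regions were endothelial-only and 14617 input-only at P6. With all deposited peaks, 16476 adult regions were endothelial-only and 16629 P6 regions input-only. With all peaks of -log10 q at least 5, 3709 adult regions were input-only, and 2591 were input-only at both ages. With absence required from the full lists of the other side, 3188 P6 regions were endothelial-only, and 1490 at both ages. The P6 balance of 9663 endothelial-only against 9250 input-only regions turned to 13779 against 16629 with all peaks and to 3188 against 7499 with absence from the full lists. Leaving out an input library turned it at both ages, such as 11399 against 13874 without adult input 1 and 10832 against 13035 without P6 input 3. The similarity of the same side minus that of different sides was 0.2937 in adult and 0.224 at P6 with all peaks, 0.2936 and 0.213 with -log10 q at least 5, 0.303 and 0.266 by fold enrichment, and 0.392 and 0.375 with 50% reciprocal overlap. Leaving out a library gave 11399 to 13233 adult endothelial-only, 9536 to 14140 adult input-only, 10315 to 12868 P6 endothelial-only and 9542 to 13035 P6 input-only regions. The 14140 came from leaving out adult input 2. The cause of these shifts was not tested, and fewer libraries ask less of a region by construction. Of the list counts, 382 stayed within 1.5 times and 158 did not under alternatives that keep all libraries, and 211 and 29 when a library was left out. Of the counts for named genes and all genes, 1339 stayed within 1.5 times and 585 did not with all libraries kept. With a library left out it was 916 and 44. Kupffer cell genes had the opposite balance of sides under 3 alternatives at each age, and cholangiocyte genes at both ages, lymphoid genes in adult and stellate genes at P6 under 1. Depth limits what absence from a list means, since a region below a library's last kept peak counts as absent.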

Other observations

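The X chromosome held a smaller share of input-only regions in adult than of other regions. It held 2.74% of adult endothelial-only regions, 0.765% of adult input-only regions, 2.64% of the regions in all 4 libraries and 2.15% of all adult regions. At P6 it held 1.71% of endothelial-only and 1.46% of input-only regions, with 2.08% of all regions. The sex of the animals is not given in the sources used here, and the difference was not tested.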
